A study of Mus musculus with 8 samples.

Results

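The 10 genes described here encode the endothelin, nitric oxide and apelin signals of the vessel wall together with angiotensin converting enzyme and the adrenomedullin receptor: Edn1, Ece1, Ednra, Ednrb, Nos3, Nos2, Apln, Aplnr, Ace and Calcrl. They were taken by name from the 32285 genes of a single-cell count table, and all 10 were found in it. The cells came from lungs of wild-type (WT) C57BL6/J mouse pups at 5 days of age, which were cryopreserved with DMSO and serum, later thawed and flow-sorted into endothelial, epithelial and immune cells. All pups had been exposed before birth to lipopolysaccharide, a bacterial cell wall component, at day 14 of gestation. From birth, 4 libraries' pups lived in 65% oxygen (hyperoxia, a model of bronchopulmonary dysplasia) and 4 libraries' pups in 21% oxygen (air). The air pups are labelled healthy, yet they had the same exposure before birth, and no library of unexposed pups is among those used here.

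The table pooled 11806 cells and 77020720 unique molecular identifiers (UMIs, each marking 1 captured transcript), and no column name matched a library label. Hyperoxia and air were therefore not compared, all values describe the pups of both groups together, and with 1 pooled sample there is no test. Barcodes fell into 8 alphabetical runs of 282 to 3355 cells, which are used below only to see whether a difference recurs; 12 barcodes occurred in more than 1 run. Runs are not known to be replicates.

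Endothelin 1 is made as a precursor that endothelin converting enzyme, the product of Ece1, cuts into its active form. It constricts vessels through the receptor Ednra on smooth muscle, while Ednrb on endothelium clears the peptide and couples to nitric oxide release. Nitric oxide, made in endothelium by Nos3 and under inflammation by Nos2, raises cyclic GMP in neighbouring muscle and relaxes it. Apelin, the Apln product, acts on the receptor Aplnr, and both are known for their roles in vessel growth and tone. These systems help to set the resistance of lung vessels as the lung takes over gas exchange at birth.

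Cells were grouped by UMI gates that used none of the members. Endothelial cells had at least 2 UMIs of Cdh5 and Cldn5, the genes of an endothelial adhesion molecule and a tight junction protein. They were split by at least 2 UMIs of Tbx2, Fibin and Car4 (Car4 capillary gate, 149 cells), of Gja5 and Bmx (arterial gate, 45 cells) or of Gpihbp1, Plvap and Kit (general capillary gate, 230 cells). A further 35 endothelial cells passed several sub-gates and 124 passed none, which made 583 endothelial cells, 4.94% of all cells and 2.93% of all UMIs. The comparison groups were type 2 alveolar cells (AT2 gate, 697 cells), type 1 alveolar cells (AT1 gate, 103), alveolar macrophages (916), monocytes (3299), T cells (608), 205 cells that passed the gates of several classes and 5395 other cells. The median number of UMIs per cell was 2435 in the Car4 capillary gate, 2792 in the arterial gate and 3250.5 in the general capillary gate, against 4425 over all cells.

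The gates were set beside marker genes that took no part in them. Of 6 such Car4 capillary markers, 6 were highest in the Car4 capillary gate among the 3 sub-gates, as were 7 of 8 arterial markers in the arterial gate, all but Sox17, and 3 of 5 general capillary markers in the general capillary gate, all but Ptprb and Sema3c. The arterial gate also held venous markers at a summed 1712 CPM (the gene's share of the group's UMIs, scaled to the usual fixed total), against 819 CPM in the general capillary gate, with Vwf, a clotting protein of larger vessels, alone at 1487 CPM. In the general capillary gate Vwf had 436 CPM. Of the other venous markers, Selp and Amigo2 were also higher in the arterial gate, at 175 and 28.2 CPM against 39.5 and 19.3 CPM. Nr2f2, Prss23 and Slc6a2 were lower in the arterial gate, at 16.9, 5.63 and 0 CPM against 167, 126 and 31.4 CPM. The arterial gate held the leukocyte gene Ptprc at 186 CPM, in 6 of its 45 cells, and neutrophil markers at a summed 1425 CPM. The Car4 capillary gate held neutrophil markers at 1596 CPM, against 59.8 CPM in the general capillary gate. Most of the Car4 capillary sum was S100a8 and S100a9, at 1067.5 and 509 CPM. The other listed markers, Retnlg, Csf3r, Cxcr2, Camp and Ngp, stood at 0 to 7.46 CPM there. In the arterial gate S100a8 and S100a9 had 659 and 445 CPM, and Retnlg and Ngp 141 CPM each. The endothelial cells with no sub-gate had lymphatic markers at 2583 CPM, and 22 of their 124 cells carried at least 2 UMIs of lymphatic genes, as did 17 of the 230 general capillary gate cells. Smooth muscle markers summed to between 2.39 and 94.3 CPM and pericyte markers to between 3.32 and 90.0 CPM across the groups, so the sorted material held few transcripts of the muscle cells on which endothelin and nitric oxide act. With the 47 endothelial cells that held a Ptprc UMI left out, the members' calls described below were the same except that Nos2 was lost in both counts that held it and Apln was lost between the arterial and general capillary gates. With the cells of lymphatic markers left out no member's call was lost. The part of the venous and neutrophil transcripts in the endothelial results was not tested.

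The regions around the start sites of 4 members are shown because the members they belong to divide between the endothelial sub-gates: Edn1 was highest in the arterial gate, Ednrb and Apln were highest together in the Car4 capillary gate, and Calcrl was high in both capillary gates. Sequences are from RefSeq on build GRCm38.p6, 250 bases before to 50 bases after each start, 5′ to 3′ on the gene's own strand. They span chr13:42301226-42301525 on the plus strand for Edn1, chr14:103843652-103843951 on the minus strand for Ednrb, chrX:48034804-48035103 on the minus strand for Apln and chr2:84425217-84425516 on the minus strand for Calcrl. Capitals mark matches, on either strand, to 5 short motifs.
Edn1: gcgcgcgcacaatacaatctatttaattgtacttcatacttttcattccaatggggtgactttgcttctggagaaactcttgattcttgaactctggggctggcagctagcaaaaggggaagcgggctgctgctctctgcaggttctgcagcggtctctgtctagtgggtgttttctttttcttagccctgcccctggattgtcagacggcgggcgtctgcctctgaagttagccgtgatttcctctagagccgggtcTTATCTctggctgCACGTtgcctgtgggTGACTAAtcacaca
Ednrb: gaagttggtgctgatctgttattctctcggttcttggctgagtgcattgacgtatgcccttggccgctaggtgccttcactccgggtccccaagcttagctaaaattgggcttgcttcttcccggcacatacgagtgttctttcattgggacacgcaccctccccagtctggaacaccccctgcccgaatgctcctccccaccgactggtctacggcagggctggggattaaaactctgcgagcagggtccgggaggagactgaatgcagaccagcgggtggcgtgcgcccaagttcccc
Apln: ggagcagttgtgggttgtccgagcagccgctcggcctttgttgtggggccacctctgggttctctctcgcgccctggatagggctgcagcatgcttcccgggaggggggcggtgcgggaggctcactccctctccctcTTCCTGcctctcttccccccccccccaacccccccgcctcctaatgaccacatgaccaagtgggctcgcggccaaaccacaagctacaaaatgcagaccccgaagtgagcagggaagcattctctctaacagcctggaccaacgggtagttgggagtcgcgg
Calcrl: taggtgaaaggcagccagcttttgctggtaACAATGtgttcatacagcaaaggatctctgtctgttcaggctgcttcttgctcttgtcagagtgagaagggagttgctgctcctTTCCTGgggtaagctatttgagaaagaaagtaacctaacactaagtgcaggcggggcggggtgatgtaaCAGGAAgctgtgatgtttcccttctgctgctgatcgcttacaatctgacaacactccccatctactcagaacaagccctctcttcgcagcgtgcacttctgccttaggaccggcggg
The motif searched for the zinc finger factors of the GATA family was AGATAA, that for AP-1 was TGACTNA, and the core of the hypoxia response element was ACGTG. The motif for ETS factors was CAGGAA and that for SOX factors was ACAATG, and no matches overlapped in these 4 windows. Of 32851 mouse promoter windows of this length, 11.2% held the GATA letters, 13.9% the AP-1 letters, 19.6% the hypoxia core, 30.6% the ETS letters and 12.6% the SOX letters. The Edn1 window held 1 GATA, 1 hypoxia core and 1 AP-1 match, which start 8, 21 and 36 bases after the first base of the gene. The Apln window held 1 ETS match, the Calcrl window 2 ETS matches and 1 SOX match, and the Ednrb window none of the 5 motifs. The Ednrb window lies wholly inside the gene span given below, whose first base is 103844402, so bases before that one were not searched. The start site used for Calcrl also lies inside its gene span. The matches are a description of letters. A window was at hand for 7 of the 10 members, all but Nos3, Nos2 and Aplnr.

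A member was called for a group when it reached 20 CPM in its leading gated group and stood at least 4 times above all other cells together. By that rule 9 of the 10 members were called and 9 were led by an endothelial group, where 30.8% of the 10870 genes that reached 20 CPM in any group were called and 15.7% were called and led by endothelium. The median fold over the 9 members was 80.2, against 2.42 over all genes that reached 20 CPM. The share of a member's UMIs found in the 583 endothelial cells was highest for Apln, at 91.4% (435 of 476 UMIs, 88.5 to 93.7), and stood at 88.3% for Aplnr (331 of 375), 85.9% for Ednrb (751 of 874), 73.9% for Edn1 (403 of 545), 66.8% for Nos3 (141 of 211) and 61.1% for Calcrl (4386 of 7179). For 3 called members most UMIs lay outside the endothelium: it held 17.8% of the Ece1 UMIs (685 of 3844), 13.6% of the Ace UMIs (686 of 5049) and 7.47% of the Nos2 UMIs (21 of 281). All intervals are exact 95% intervals for counting error only. CPM values are not scaled to transcript length, so levels are compared between groups and not between genes.

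**Figure D1:**
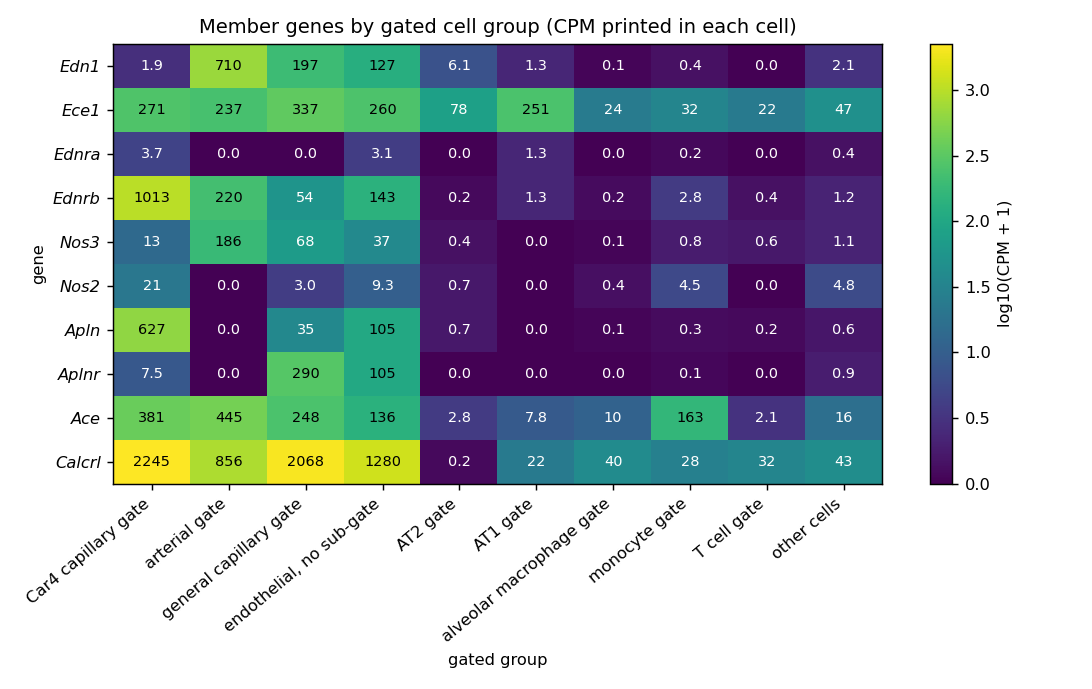
Level of the 10 genes (rows) in 10 gated cell groups (columns), with the CPM printed in each field and colour giving log10(CPM + 1); all runs are pooled. Edn1 and Nos3 are highest in the arterial gate, Ednrb and Apln in the Car4 capillary gate and Aplnr in the general capillary gate, and Ace stands out from the non-endothelial groups in the monocyte gate.

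Edn1, the endothelin 1 gene (chr13:42301476-42307990, plus strand), was an arterial and general capillary transcript that was close to missing from the Car4 capillary gate. It reached 1.87 CPM in the Car4 capillary gate (1 UMI in 149 cells), 710 CPM in the arterial gate (591 to 845) and 197 CPM in the general capillary gate (170 to 226). The epithelial, macrophage, monocyte and T cell gates stayed at or under 6.09 CPM. The arterial level was 130 times that of all other cells (106 to 159).

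In the 5 runs that held at least 15 cells of each capillary gate, runs 1, 4, 5, 6 and 7, Edn1 stood at 0, 0, 0, 0 and 6.0 CPM in the Car4 capillary gate, against 105, 472, 217, 156 and 275 CPM in the general capillary gate. The ranges did not overlap, and the Car4 capillary gate was lower in 5 of 5 runs. Over all runs the Car4 capillary gate was 105 times lower (18.7 to 4184). Without run 7, which held the single UMI, the group was at 0 and the log2 ratio was -4.42 against the 3-UMI floor. Arterial values in the same runs were 679, 332, 1132, 1230 and 219 CPM from 4, 5, 16, 5 and 14 cells, higher than in the general capillary gate in 3 of 5 runs. The pooled arterial level was 3.61 times the general capillary level (2.86 to 4.54), but in runs 4 and 7 the order was turned round.

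Ece1, the converting enzyme (chr4:137862237-137965229, plus strand), was found well beyond the endothelium. It reached 271 CPM in the Car4 capillary gate, 237 CPM in the arterial gate, 337 CPM in the general capillary gate (301 to 375) and 260 CPM in endothelial cells with no sub-gate. The AT1 gate, with 251 CPM (217 to 289), lay within that range, while the AT2 gate had 78.5 CPM and alveolar macrophages, monocytes and T cells had 22.0 to 32.4 CPM. General capillary cells led all other cells by 7.29 times (6.49 to 8.16), and the ratio to them was 0.804 for the Car4 capillary gate and 0.703 for the arterial gate, neither past the 2-fold rule. The antisense neighbour Gm13012 overlaps Ece1 and had 410 UMIs; whether strand was used in counting is not given in the sources used here.

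Ednrb, the endothelial receptor of endothelin (chr14:103814625-103844402, minus strand), was highest in the Car4 capillary gate. It had 1013 CPM there (930 to 1102), 220 CPM in the arterial gate (156 to 300) and 53.7 CPM in the general capillary gate (40.3 to 70.3). The AT2, AT1, alveolar macrophage, monocyte and T cell gates held 0.217 to 2.77 CPM. The Car4 capillary level was 234 times that of all other cells (204 to 269). In runs 1, 4, 5, 6 and 7 it was 989, 1266, 849, 821 and 1266 CPM in the Car4 capillary gate, against 46.1, 47.2, 33.4, 83.0 and 40.6 CPM in the general capillary gate. The lowest Car4 capillary value was far above the highest general capillary value in these runs. Arterial values were 0, 82.9, 152, 559 and 299 CPM, higher than the general capillary gate in 4 of 5 runs and resting on 0 to 15 UMIs a run. Of the 39 arterial Ednrb UMIs, 13 came from a single cell.

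With each cell thinned to 1500 UMIs, which removes differences in depth, 70.2% of Car4 capillary gate cells held an Ednrb UMI (61.3 to 78.0). The thinned shares were 11.9% of arterial gate cells (3.98 to 25.6) and 6.70% of general capillary gate cells (3.71 to 11.0). The arterial and general capillary intervals overlapped. The unthinned shares were 83.9% in the Car4 capillary gate, 28.9% in the arterial gate and 11.7% in the general capillary gate. In the AT2 gate, whose cells should lack the transcript, the thinned share was 0% of 673 cells (up to 0.547%) and the unthinned share 0.143% at a median of 4495 UMIs. The general capillary share lay above that background. Thinning left out 25 Car4 capillary, 3 arterial and 21 general capillary gate cells with fewer UMIs.

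Ednra, the receptor of contractile cells (chr8:77663031-77724464, minus strand), was nearly missing: 22 UMIs in 13 cells of the whole table, 3 of them in endothelial cells. It reached 20 CPM in no gated group, and no call or comparison was possible. In the general capillary gate a count of 0 had an exact upper limit of 3.74 CPM, above the 3-count floor of 3.04 CPM. The low smooth muscle and pericyte marker sums stand beside this value.

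Of 7 other genes of the endothelin list, 2 reached 20 CPM and both were called, where 30.8% of all genes were; neither was led by endothelium: Edn3, another endothelin ligand, at 37.5 CPM in the AT1 gate (25.1 to 53.9, 77.4 times all other cells) and Mme, the peptidase neprilysin that breaks down endothelin and other peptides, at 95.6 CPM in the AT2 gate (8.11 times). Edn2 had 3 UMIs in the whole table. The AT1 gate held markers of pluripotent cells in 10 of its 103 cells. So did 10 of 230 general capillary, 1 of 149 Car4 capillary and 1 of 45 arterial gate cells. With such cells left out, 2 genes of the list were again called and no member's call was lost. Their part in the levels of these gates was not tested further.

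Nos3, the endothelial nitric oxide synthase (chr5:24364810-24384474, plus strand), followed the order of Edn1, with 13.1 CPM in the Car4 capillary gate (5.25 to 26.9), 186 CPM in the arterial gate (128 to 261) and 67.9 CPM in the general capillary gate (52.6 to 86.3). The epithelial and immune gates held 0 to 0.818 CPM. The arterial level was 80.2 times that of all other cells (53.6 to 117). Arterial values by run were 157, 166, 109, 186 and 259 CPM, against 75.7, 11.8, 33.4, 68.3 and 108 CPM in the general capillary gate, higher in 5 of 5 runs. The ranges met at their edges, with the lowest arterial value, 109 CPM, beside the highest general capillary value, 108 CPM. The Car4 capillary gate was 5.20 times lower than the general capillary gate over all runs (2.39 to 13.4), but lower in 3 of 5 runs, and without run 7 the log2 ratio was -1.79 where the pooled value was -2.38. The overlapping genes Atg9b and Gm15587, on the other strand, had 43 and 9 UMIs.

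Nos2, the inducible nitric oxide synthase (chr11:78920787-78960254, plus strand), passed the rule by a small margin. Its leading gated group was the Car4 capillary gate with 20.5 CPM, from 11 UMIs in 7 of 149 cells (10.2 to 36.7), against 3.04 CPM from 3 UMIs in the general capillary gate, and the arterial gate was at 0. The ratio of the capillary gates was 6.75 (1.78 to 37.7), and 4 of 5 runs had a higher CPM in the Car4 capillary gate. In runs 1, 4, 5, 6 and 7 the Car4 capillary gate held 3, 1, 0, 6 and 1 UMIs. The general capillary gate held 2, 1, 0, 0 and 0. After thinning, a Nos2 UMI was seen in 2 of 124 Car4 capillary gate cells (1.61%, 0.196 to 5.70). The thinned share was 2 of 209 general capillary gate cells (0.957%, 0.116 to 3.41), and the intervals overlapped. The call was lost without run 1 or run 6. Without run 6 the level was 12.3 CPM and the log2 ratio of the capillary gates 1.68. Without run 1 that ratio was 3.68, where the pooled value was 2.75. The call was also lost with cells of several gates put in the first class, with stricter gates and with each cell weighted alike. It was lost too at a call of 50 CPM and with Ptprc-positive endothelial cells left out. Of the 281 Nos2 UMIs, 99 lay in the monocyte gate, in 12 of 3299 cells, and up to 32 of them came from a single cell.

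Of the 31 other genes of the nitric oxide and cyclic GMP list, 29 reached 20 CPM, 17 were called and 14 of those were led by endothelium, where 30.8% of all genes were called and 15.7% were called and led by endothelium. Subunits of the nitric oxide receptor, soluble guanylate cyclase, were found at low levels and in different groups: Gucy1a1 was led by the arterial gate with 45.1 CPM (19.5 to 88.8, 8 UMIs) Gucy1b1 by the Car4 capillary gate with 24.3 CPM (12.9 to 41.5) and Gucy1a2 by the AT1 gate with 37.5 CPM (25.1 to 53.9, 29 UMIs). The arterial gate also held fibroblast markers at a summed 208 CPM, against 0 to 38.6 CPM in the other endothelial groups, and their part in the Gucy1a1 value was not tested. Pde3a, a phosphodiesterase that cyclic GMP inhibits, had 317 CPM in the Car4 capillary gate, 1470 CPM in the arterial gate and 901 CPM in the general capillary gate. Prkg1, the kinase that cyclic GMP activates, stood between 459 and 812 CPM in the 5 endothelial groups and at 233 CPM in the AT1 gate. Cav1, the caveolar protein that binds and restrains Nos3, led in the general capillary gate with 717 CPM. Gchfr, which regulates synthesis of the synthase cofactor tetrahydrobiopterin, led in the same gate with 42.6 CPM, and Npr3, the clearance receptor of natriuretic peptides, led there with 217 CPM. Pde9a, which breaks down cyclic GMP, had 72.8 CPM in the Car4 capillary gate, 5.63 CPM in the arterial gate and 70.0 CPM in the general capillary gate, and the ratio of the capillary gates was 1.04 (0.684 to 1.56). Nos1, the neuronal synthase, stayed at or under 3.88 CPM in every group.

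Apln and Aplnr, ligand and receptor, were found in different capillary gates. Apln (chrX:48025146-48034853, minus strand) had 627 CPM in the Car4 capillary gate (562 to 698), 0 CPM in the arterial gate and 35.5 CPM in the general capillary gate (24.7 to 49.4). Aplnr (chr2:85136225-85139923, plus strand) had 7.46 CPM in the Car4 capillary gate (2.03 to 19.1), 0 CPM in the arterial gate and 290 CPM in the general capillary gate (257 to 326). Apln in its leading gate was 343 times all other cells (280 to 420), and Aplnr 248 times (195 to 318). The Apln level of the Car4 capillary gate was 17.7 times that of the general capillary gate (12.5 to 25.8), while for Aplnr the Car4 capillary gate was 38.8 times lower (15.0 to 144).

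By run, Apln was 517, 1055, 885, 418 and 690 CPM in the Car4 capillary gate, against 26.3, 94.5, 41.8, 14.6 and 40.6 CPM in the general capillary gate. Aplnr in the same runs was 27.2, 0, 0, 7.75 and 0 CPM in the Car4 capillary gate, against 342, 272, 393, 200 and 248 CPM in the general capillary gate. For both genes the 2 gates did not overlap in any of the 5 runs, and the directions were opposite. Of the 4 Aplnr UMIs of the Car4 capillary gate, 3 came from run 1, and without that run the log2 ratio was -6.83 where the pooled value was -5.28. With 0 UMIs in 45 cells for each, the arterial gate was set at the 3-UMI floor of 16.9 CPM. By that bound it was 2.10 times lower than the general capillary gate for Apln and 17.2 times lower for Aplnr. The exact upper limit for 0 arterial UMIs was 20.8 CPM, above the floor, so the bounds do not cover counting error. Without run 1, 4, 5 or 7 the Apln bound no longer passed the 2-fold rule, with log2 values of -0.88, -0.72, -0.60 and -0.53.

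After thinning to 1500 UMIs, Apln was seen in 58.1% of Car4 capillary gate cells (48.9 to 66.9) and 5.74% of general capillary gate cells, and Aplnr in 0.806% of Car4 capillary gate cells and 27.3% of general capillary gate cells (21.4 to 33.8). The unthinned shares for Apln were 73.2% in the Car4 capillary gate and 11.3% in the general capillary gate, and for Aplnr 2.01% in the Car4 capillary gate and 47.8% in the general capillary gate. In the AT2 gate both thinned shares were 0% (up to 0.547%). Across the 583 endothelial cells, Aplnr was seen in 22 of 163 cells with an Apln UMI (13.5%) and in 117 of 420 cells without one (27.9%). Ednrb was seen in 117 of the 163 cells with an Apln UMI (71.8%) and in 100 of the 420 without one (23.8%). Within the Car4 capillary gate Ednrb was seen in 96 of 109 cells with an Apln UMI and in 29 of 40 without one. Within the general capillary gate Aplnr was seen in 13 of 26 cells with an Apln UMI and in 97 of 204 without one. These paired counts used all UMIs and were not matched for depth. Thinned to 1500 UMIs, endothelial Aplnr counts were 7 of 98 with and 62 of 404 without Apln. Those of Ednrb were 68 of 98 and 65 of 404. Thinned Ednrb counts in the Car4 capillary gate were 60 of 72 and 27 of 52. Thinned Aplnr counts in the general capillary gate were 5 of 12 and 52 of 197.

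**Figure D2:**
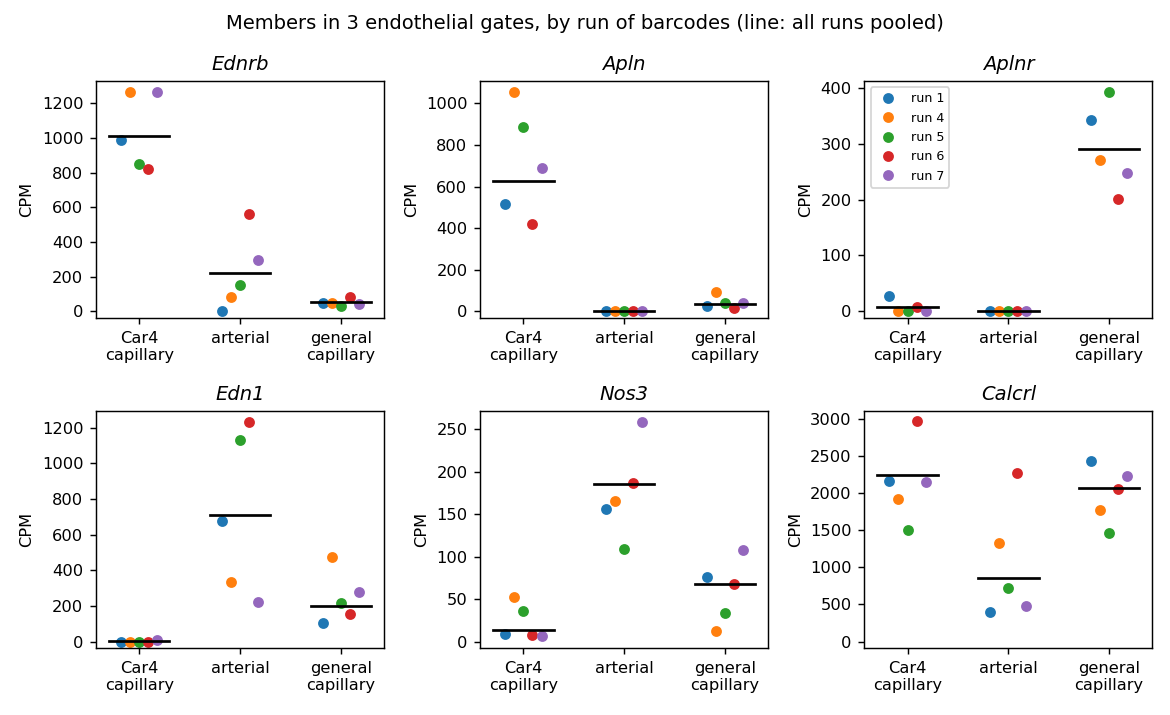
CPM of 6 members in the Car4 capillary, arterial and general capillary gates, 1 panel a gene; points are the 5 runs of barcodes with at least 15 cells of each capillary gate, and black lines are the values with all 8 runs pooled. Ednrb and Apln are higher and Aplnr and Edn1 lower in the Car4 capillary gate than in the general capillary gate in every run plotted, while arterial Edn1 and Ednrb values vary widely between runs of 4 to 16 cells.

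Of the 7 other genes of the apelin list, 6 reached 20 CPM and 0 were called, where 30.8% of all genes were. The list holds signalling partners such as Arrb1, a receptor-binding arrestin with 146 CPM in the general capillary gate and 3.89 times all other cells. Apela, the second ligand of Aplnr, reached 14.2 CPM in the AT1 gate (11 UMIs). Across the 3 endothelial sub-gates Apela was at 0 except for 3 UMIs in 1 cell of the general capillary gate.

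Ace, angiotensin converting enzyme (chr11:105967945-105989964, plus strand), makes angiotensin II and breaks down bradykinin, and the lung endothelium is its classical site. It had 381 CPM in the Car4 capillary gate (330 to 437), 445 CPM in the arterial gate (352 to 555) and 248 CPM in the general capillary gate (218 to 282). The arterial level was 6.88 times that of all other cells (5.44 to 8.59). Car4 capillary values by run were 436, 369, 542, 225 and 432 CPM, against 296, 272, 351, 137 and 230 CPM in the general capillary gate. The gates overlapped across runs, yet the Car4 capillary gate was higher in 5 of 5 runs, by 1.53 times over all cells (1.27 to 1.85). The arterial gate was 1.79 times the general capillary gate (1.37 to 2.32) and also higher in 5 of 5 runs, and neither ratio passed the 2-fold rule. Without run 5 the arterial level was 357 CPM and the arterial gate no longer led, and without run 1 the arterial log2 ratio was 1.08 and passed the rule. The nonclassical monocyte markers Nr4a1, Cd300a and Treml4 summed to 473 CPM in the arterial gate, against 78.1 CPM in the general capillary gate. The classical monocyte markers Ccr2, Vcan and Fn1 summed to 867 CPM, against 167 CPM. Most of the arterial sums was Nr4a1 (349 CPM) and Fn1 (794 CPM). Their part in the arterial Ace value was not tested.

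Outside the endothelium Ace was highest in the monocyte gate, and there in the arm gated on Eno3 and Adgre4, genes of nonclassical, patrolling monocytes. The monocyte gate as a whole had 163 CPM (158 to 169) and 3595 of the 5049 Ace UMIs. The 2009 cells that passed by Eno3 and Adgre4 alone had 319 CPM (308 to 330), against 3.84 CPM in the 940 cells that passed by Ly6c2 and F13a1, genes of classical monocytes, alone, a ratio of 83.0 (58.1 to 123). The 350 cells that passed both arms had 58.0 CPM. By run, values were 254 to 484 CPM with a median of 325 CPM in the Eno3 and Adgre4 arm, against 0 to 19.0 CPM with a median of 4.91 CPM in the Ly6c2 and F13a1 arm. The arms did not overlap and the direction was the same in 8 of 8 runs. The neutrophil markers summed to 989 CPM in the Eno3 and Adgre4 arm, against 39060 CPM in the Ly6c2 and F13a1 arm, where S100a8 and S100a9, which classical monocytes also express, made up most of the sum and the granule genes Camp and Ngp stood at 1365 and 1799 CPM. With cells left out that held at least 2 UMIs of Retnlg, Cxcr2, Camp and Ngp, a choice made after seeing the data, Ace had 318 CPM in the 1972 remaining Eno3 and Adgre4 arm cells, against 4.44 CPM in the 868 remaining Ly6c2 and F13a1 arm cells, a ratio of 71.6 (50.04 to 106). An Ace UMI was seen in 58.6% of the Eno3 and Adgre4 arm cells and 2.45% of the Ly6c2 and F13a1 arm cells.

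**Figure D3:**
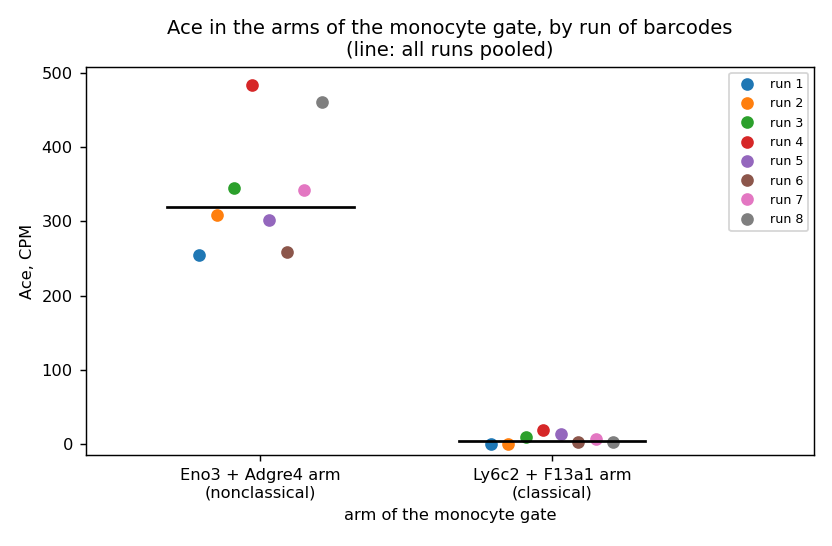
Ace in the arms of the monocyte gate, in CPM; points are the 8 runs of barcodes and black lines the values with all runs pooled. The Eno3 and Adgre4 arm lies between 254 and 484 CPM in every run and the Ly6c2 and F13a1 arm between 0 and 19.0 CPM.

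Nos2 had the opposite place within the same gate, with 0 UMIs in the Eno3 and Adgre4 arm, against 95 UMIs (12.2 CPM) in 10 of the 940 cells of the Ly6c2 and F13a1 arm. These UMIs came from 2 of the 8 runs, and 92 of the 95 remained without the cells that carried neutrophil transcripts. Calcrl differed little, with 30.5 CPM in the Eno3 and Adgre4 arm and 27.4 CPM in the Ly6c2 and F13a1 arm, a ratio of 1.11 (0.932 to 1.33), and 1.299 (1.07 to 1.58) without those cells.

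Among 22 other genes of the angiotensin and kinin list, 11 reached 20 CPM and 5 were called, 2 of them led by endothelium, where 30.8% of all genes were called and 15.7% were called and led by endothelium. Bdkrb2, the bradykinin receptor, had 87.7 CPM in the Car4 capillary gate (64.4 to 117), 28.2 CPM in the arterial gate and 15.2 CPM in the general capillary gate, and was 80.8 times all other cells. Cpe, a carboxypeptidase that matures peptide hormones, had 276 CPM in the arterial gate. The other 3 led in epithelium: Enpep, an aminopeptidase that cuts angiotensin II, with 79.5 CPM and Cpm, a carboxypeptidase that cuts kinins, with 297 CPM in the AT2 gate, and Prep, a prolyl peptidase, with 221 CPM in the AT1 gate. Agt, the angiotensinogen gene, had 10 UMIs in the whole table.

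Calcrl (chr2:84330626-84425411, minus strand) is the receptor that binds adrenomedullin or calcitonin gene-related peptide depending on its RAMP partner. It was high throughout the endothelium, with 2245 CPM in the Car4 capillary gate (2120 to 2376), 856 CPM in the arterial gate (725 to 1004) and 2068 CPM in the general capillary gate (1980 to 2160). Alveolar macrophages, T cells and monocytes had 40.4, 32.4 and 27.6 CPM, and the AT2 gate had 1 UMI. By run, values were 2169, 1926, 1500, 2974 and 2154 CPM in the Car4 capillary gate, against 2432, 1772, 1462, 2050 and 2230 CPM in the general capillary gate. The gates overlapped throughout, with the Car4 capillary gate higher in 3 of 5 runs and a pooled ratio of 1.09 (1.01 to 1.17). The arterial gate was 2.42 times lower than the general capillary gate (2.05 to 2.87) and lower in 4 of 5 runs, and without run 1 the log2 ratio was -0.95 and no longer passed the 2-fold rule. After thinning, a Calcrl UMI was seen in 84.7% of Car4 capillary gate cells, in 21 of 42 arterial gate cells and in 77.0% of general capillary gate cells, and in 4.08% of monocytes and 6.30% of T cells.

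Its partners differed by compartment. Ramp2, which makes Calcrl an adrenomedullin receptor, had 1495 CPM in the Car4 capillary gate (1393 to 1602), 1188 CPM in the arterial gate and 832 CPM in the general capillary gate, and at most 0.681 CPM in the epithelial, macrophage, monocyte and T cell gates. Ramp1, which makes it a receptor for calcitonin gene-related peptide, had 1.01 to 16.9 CPM in the 3 endothelial sub-gates, 54.4 CPM in the AT1 gate, 118 CPM in the AT2 gate and 109 to 216 CPM in the alveolar macrophage, monocyte and T cell gates. Ramp3 reached 15.2 CPM in the general capillary gate. Of 12 listed genes 5 reached 20 CPM and 3 were called, where 30.8% of all genes were, and the 3 were led by endothelium, where 15.7% of all genes were called and so led: Ramp2, Gpr182 with 105 CPM in the general capillary gate, and Ackr3, a scavenging receptor reported to bind adrenomedullin, with 329 CPM in the same gate. The ligand gene Adm had at most 8.57 CPM in any group.

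Between the Car4 capillary and the general capillary gate, a gene was called when it was at least 2 times apart and reached 20 CPM in the higher gate. Of the 9 members that reached it, 6 were called, 3 higher (Ednrb, Apln, Nos2) and 3 lower (Edn1, Aplnr, Nos3) in the Car4 capillary gate, where 25.9% of 8017 genes were called, 11.0% higher and 14.9% lower. The median size of the log2 ratio was 2.75 over the 9 members and 0.53 over all genes. Of the pathway genes 41 reached 20 CPM, 1 was higher (Bdkrb2) and 13 were lower. The lower ones included Npr3, with 3 UMIs in the Car4 capillary gate and 217 CPM in the general capillary gate (38.8 times lower, 13.1 to 189). Gpr182 had 1.87 CPM in the Car4 capillary gate and 105 CPM in the general capillary gate. Gch1, the enzyme that starts tetrahydrobiopterin synthesis, had 3 UMIs in the Car4 capillary gate and 55.8 CPM in the general capillary gate (9.96 times lower, 3.23 to 49.8).

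Between the arterial and the general capillary gate, 6 of 8 members were called, 3 higher (Edn1, Ednrb, Nos3) and 3 lower (Apln, Aplnr, Calcrl) in the arterial gate, where 33.9% of 8376 genes were called, 15.3% higher and 18.6% lower. Of the pathway genes 43 reached 20 CPM, 7 were higher and 11 were lower. Gucy1a1 had 45.1 CPM in the arterial gate and 6.08 CPM in the general capillary gate (7.41 times, 2.25 to 25.9), and Cpe had 276 CPM in the arterial gate and 62.9 CPM in the general capillary gate (4.39 times). Nostrin, a protein that moves Nos3 away from the membrane, had 22.5 CPM in the arterial gate and 217 CPM in the general capillary gate, 9.63 times lower (3.71 to 35.7). Both comparisons use the same 230 general capillary gate cells.

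**Figure D4:**
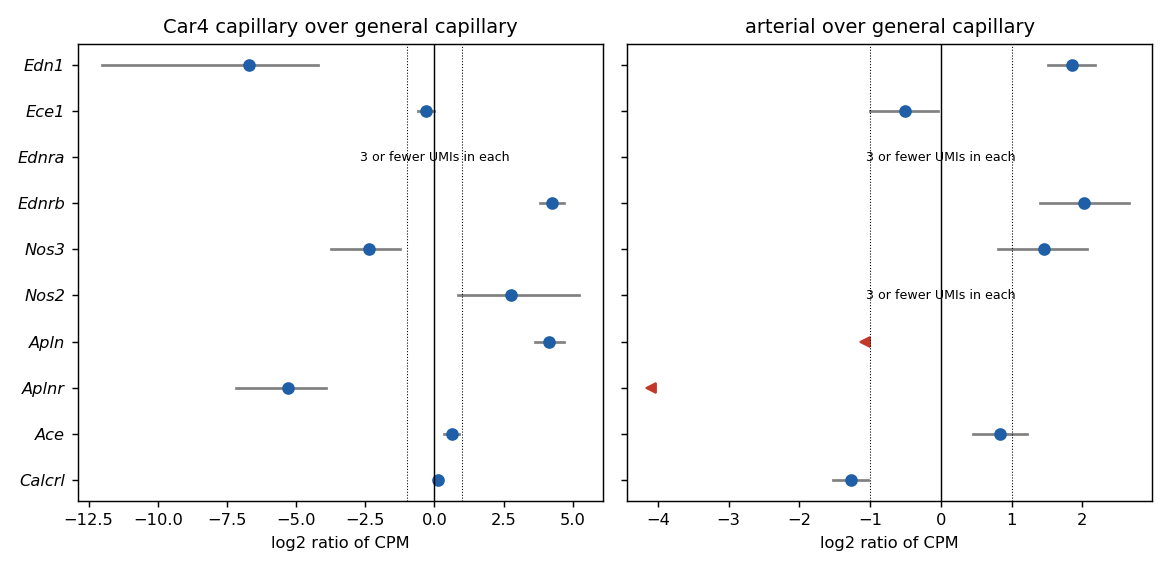
Log2 ratio of CPM for the 10 members, Car4 capillary over general capillary gate on the left and arterial over general capillary gate on the right; blue points carry 95% intervals for counting error, red triangles are bounds against a floor of 3 UMIs, and dotted lines mark the 2-fold rule. Ednrb lies to the right of the upper 2-fold line in both panels and Aplnr to the left of the lower line in both, while Edn1 is on the left in the Car4 capillary panel and on the right in the arterial panel.

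Some genes followed the members closely over 10 gated groups, as measured by Pearson's r of log2(CPM + 10); these r values describe 10 groups of 1 pooled sample and have no p. The nearest to Edn1 were Gja4 (r = 0.995), Stc1 (0.994) and Sema3g (0.992), and the nearest to Nos3 were Tm4sf1 (0.993), Amigo2 (0.989) and Hoxa3 (0.989). Ednrb was followed by Sept4 (0.995), Bdkrb2 (0.982) and Tmem26 (0.979), and Apln by Gm30648 (0.996) and Hapln1 (0.995). The nearest to Aplnr were Glp1r (0.990), Ntrk2 (0.987) and Wif1 (0.984). For Ace the highest were Rras (0.973), Filip1l (0.965) and Ehd4 (0.951), for Calcrl Plscr4 (0.980), Lix1l (0.979) and Arhgef15 (0.977), and for Ece1 Fbxl7 (0.987), Rassf9 (0.985) and Cavin1 (0.981). Nos2 had the weakest likeness, at most 0.937, with Chst1. With a pseudocount of 1 CPM in place of 10, 14 of the 27 nearest genes were again among the nearest 3 of their member. The 13 that were not were Gja4, Sema3g, Amigo2, Bdkrb2, Wif1, Ehd4, Plscr4, Arhgef15, Rassf9, Cavin1, Chst1, 2610203C22Rik and Rtn1. Chst1, 2610203C22Rik and Rtn1 were the nearest 3 of Nos2. The groups share the leading few endothelial values, so an r near 1 mainly says that a gene was high in the same gate.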

How the data were processed

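The authors deposited 1 table of raw UMI counts by gene and cell. The submitters' processing notes name Cell Ranger 1.3.1 and mm10, and how strand and intronic reads were handled is not given in the sources used here. Per the values, the deposited cells had already been filtered: the fewest genes in a cell were 800 and the highest mitochondrial share was 9.99%. Counts were summed per gated group and scaled to CPM in Python 3.11.15 (scipy 1.17.1). Gates were those given in the text, with AT2 cells at 3% or more Sftpc UMIs, AT1 cells at 3 Rtkn2 UMIs, alveolar macrophages at 2 Ear1 and Marco UMIs, monocytes at 3 Ly6c2 and F13a1 or 2 Eno3 and Adgre4 UMIs, and T cells at 2 Cd3e and Trac UMIs; cells of several classes were kept apart. Levels carry exact Poisson intervals, ratios exact conditional binomial intervals and shares Clopper-Pearson intervals, at 95%. The planned edgeR comparison of hyperoxia with air needed cells tied to libraries and was not run. Doublets were not removed, and free RNA was not subtracted. The scripts were tested on simulated data. Named genes were the members, fixed partners, up to 8 called genes a list and the 3 most like genes of each called member. Some values under this rule are not reported here. Nostrin, Arrb1, Calca and Gch1 were named after their values were seen. The members and lists were chosen with earlier results of these data known. Gene positions are from the GENCODE annotation of GRCm38, and depth per run was 2574027 to 17841702 UMIs.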

Additional observations from a re-analysis of the deposited data

How the results depend on the processing

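Members' levels, leading groups, folds, gate ratios and counts of calls were recomputed under 17 alternatives: 6 changes of gating, cell filter, doublets, weighting or threshold, 3 chosen after seeing the data, and 8 that left out a run of barcodes each. No direction of a fold, or of a gate ratio past the 2-fold rule, was reversed. The Calcrl log2 ratio of Car4 over general capillary gate, 0.118 pooled, changed sign, with -0.042 to 0.248 when runs were left out. Over all 17, members called by group numbered 8 to 9, and members called between the Car4 and general capillary gates and between the arterial and general capillary gates 5 to 6 each. Nos2 was the call lost in the first and the second count. In the third, Apln was lost in each alternative that gave 5, and without run 1 Calcrl was lost and Ace gained as well. The count called in the apelin list was 0, and it was 1 with stricter gates (Apela, AT1 gate), without the highest doublet scores, with the stricter cell filter and with Ptprc-positive endothelial cells left out (Arrb1 in each), and 0 to 1 with runs left out. At a call of 50 CPM the endothelin list had 1 call, against 2, and the nitric oxide and cyclic GMP list 11, against 17. The share of all genes called, 30.8%, holds for 20 CPM only, and none is given here for 50 CPM. With cells of several gates put in the first class, the Edn1 log2 ratio of Car4 over general capillary gate was -2.95, against -6.72, and the Aplnr ratio -4.25, against -5.28. With stricter gates the Aplnr bound of arterial over general capillary gate was -5.46, against -4.10. With each cell weighted alike, the log2 folds were 6.01 for Edn1, 7.19 for Ednrb, 5.69 for Nos3, 7.64 for Apln, 6.57 for Aplnr and 4.09 for Calcrl. The leading group of Calcrl changed in 4 alternatives. The causes were not tested. No paired analysis was possible because the cells carry no library or replicate label. The 45 arterial gate cells limit all arterial values.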

Other observations

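Among the 5395 other cells, sets were picked by marker genes after values had been seen, and are given as values. Nos2 was found in 11 of 18 cells with at least 2 UMIs of the ciliated cell genes Foxj1, Ccdc153 and Rsph1. They held 35 of the 281 Nos2 UMIs, 233 CPM (163 to 325), 72.9 times the level of the rest of the table, and came from 7 of the 8 runs. In 62 cells with markers of type 2 innate lymphoid cells (Il1rl1, Il5, Il13), Calca, which encodes calcitonin gene-related peptide, had 194 CPM (151 to 245), 63.3 times the rest. The same cells had Calcrl at 197 CPM (154 to 248) and Ramp1 at 355 CPM (297 to 422), and 0 UMIs of Ramp2; 32 of the 62 came from a single run.

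Apela, the second apelin receptor ligand, had 282 of its 333 UMIs in 458 other cells with at least 2 UMIs of Dppa5a, Pou5f1 and Tdgf1, genes of pluripotent cells, at 56.9 CPM (50.4 to 63.9). The same cells had Mme at 116 CPM (107 to 126), and 231 of the 458 came from a single run. Of the 22 Ednra UMIs of the table, 10 came from 3 of 7 other cells with collagen and decorin transcripts. Ece1 was at 122 CPM (105 to 140) in 186 cells with dendritic cell markers, 2.52 times the rest.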
